A study of Mus musculus with 28 samples.

Results

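The 8 genes described here are Cish, Socs1, Socs2 and Socs3, which encode inhibitors of cytokine signalling, Pim1, Pim2 and Pim3, which encode the PIM serine/threonine kinases, and Osm, which encodes the cytokine oncostatin M. They were chosen by name, as feedback and survival genes that the transcription factor STAT5 is known to induce. The choice was made with earlier results of these data known. The genes were found through their Ensembl identifiers among 30608 genes in the deposited table. All 8 were present and all 8 passed the filter on low values that left 14828 genes to test. The libraries came from CTLL2 cells, an established mouse cytotoxic T-cell line that grows on interleukin-2 (IL-2) and is labelled as strain C57BL/6. All cultures were kept in complete medium and then received fresh complete medium, so that untreated times after 0 h also follow a medium change. The untreated groups are 0 h, at that change (4 libraries), and 0.5, 2, 4 and 8 h after it (3 libraries per time). The treated groups, with 3 libraries per time at the same 4 later times, had exosomes of the mouse melanoma line B16F0 in the fresh medium, added in PBS at 0.2 mg/ml. The labels do not say whether untreated cells received PBS, and they name no treated group at 0 h. They call the replicates biological and give 1 library per group as batch 1 and the others as batch 2, 9 and 19 libraries in all. All come from 1 cell line.

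When IL-2 binds its receptor, the kinases JAK1 and JAK3 phosphorylate STAT5, which moves to the nucleus and turns on target genes. Among these targets are its own brakes: CIS, the product of Cish, and the SOCS proteins bind the activated receptors or JAKs and dampen further signalling. The PIM kinases, another set of targets, support survival and growth of T cells and are active without an activating phosphorylation step, so that their transcript level bears on their activity. Oncostatin M is a cytokine of the interleukin-6 family, made by activated T cells and macrophages, and its gene is a classical STAT5 target.

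STAT proteins bind a palindrome spelled TTCNNNGAA, which reads the same on both strands. It was searched in RefSeq promoter windows of GRCm38.p6, 250 bases before to 50 after a start site, which were at hand for 6 of the members, all but Socs2 and Osm (7 windows). Of all 32851 windows 8.30% held the palindrome and 0.457% held it at least 2 times. The Cish window held 2 copies, which began at the start site and ended 19 bases after it. The Socs3 window held 1 copy, from 154 to 146 bases before the start site, and the windows of Socs1, Pim1, Pim2 and Pim3 held 0. The core of the element bound by interferon regulatory factors, GAAANNGAA on either strand, was in 8.56% of all windows, at least 2 times in 0.624%. Socs1 was the member that held it, with 2 overlapping copies from 83 to 69 bases before its start site. A match is a description of the letters and shows no binding. These 3 stretches are shown because they are the members' windows with a match, each 30 bases, 5′ to 3′ on the gene's strand, with the matches in capitals.
Cish, chr9:107296654-107296683, plus strand: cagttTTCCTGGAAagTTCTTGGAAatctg
Socs3, chr11:117969501-117969530, minus strand: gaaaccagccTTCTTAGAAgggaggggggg
Socs1, chr16:10785597-10785626, minus strand: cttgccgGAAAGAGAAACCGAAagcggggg

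Values are normalized counts, that is, read counts divided by 1 size factor per library. Recovered reads ran from 6072984 to 24085812 per library, and the members had between 231 and 4701 reads in each library, so that no member was at 0 anywhere. All 11 T-cell markers were detected in every library, with Cd8a lowest at 46.8 to 162. In bulk RNA, fewer cells of a type and less RNA per cell cannot be told apart. Of 8 macrophage markers, considered because macrophages also express Osm and Socs3, Lyz2, Csf1r, Adgre1, Itgam, C1qa and Spi1 reached at most 7.47 in any library, while Cd68 (266 to 544) and Cd14 (140.1 to 244) were present, and the sum of the 8 was 504 to 725. The 8 melanocyte markers summed to 7.45 to 21.5 in untreated and 62.3 to 160.1 in treated libraries, and the part of RNA carried by the exosomes in the members' values was not tested. In 8 libraries from 5 of the groups the skeletal muscle gene Acta1 was at 75.2 to 415, against at most 4.71 in the others. Untreated 4 h replicate 1 and exosome 8 h replicate 3 had fewer genes at 0 than the other libraries, where 27.8% to 39.9% of genes were at 0. Differences below are on the log2(normalized count + 1) scale ± limma's standard error, and a gene was called at a Benjamini-Hochberg adjusted p below 0.05 over all genes tested. Per-library values are listed with the batch 1 library first.

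Within 0.5 h of the medium change, 4 of the 8 members were called higher in untreated cells: Socs3, Osm, Cish and Socs1. All 8 were higher at an unadjusted p under 0.05 in limma, as were 327 of 14828 genes. None of the members fell, and the median difference over the 8 was 0.54, beside 0.00 over all genes. Among all genes tested, 0.169% were called higher and 0.0202% lower at this time (limma). The 4 called members were lower again at 2 h. Exosome-treated means at 0.5 h stood at 2.33 times the 0 h mean for Socs3, 2.08 for Osm, 1.94 for Socs1 and 1.78 for Cish. In the plot of all libraries by time every member but Socs2 has its highest group mean at 0.5 h, and Socs2 peaks at 2 h. Pim1 and Pim2 have their lowest points at 2 h and 4 h.

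**Figure D1:**
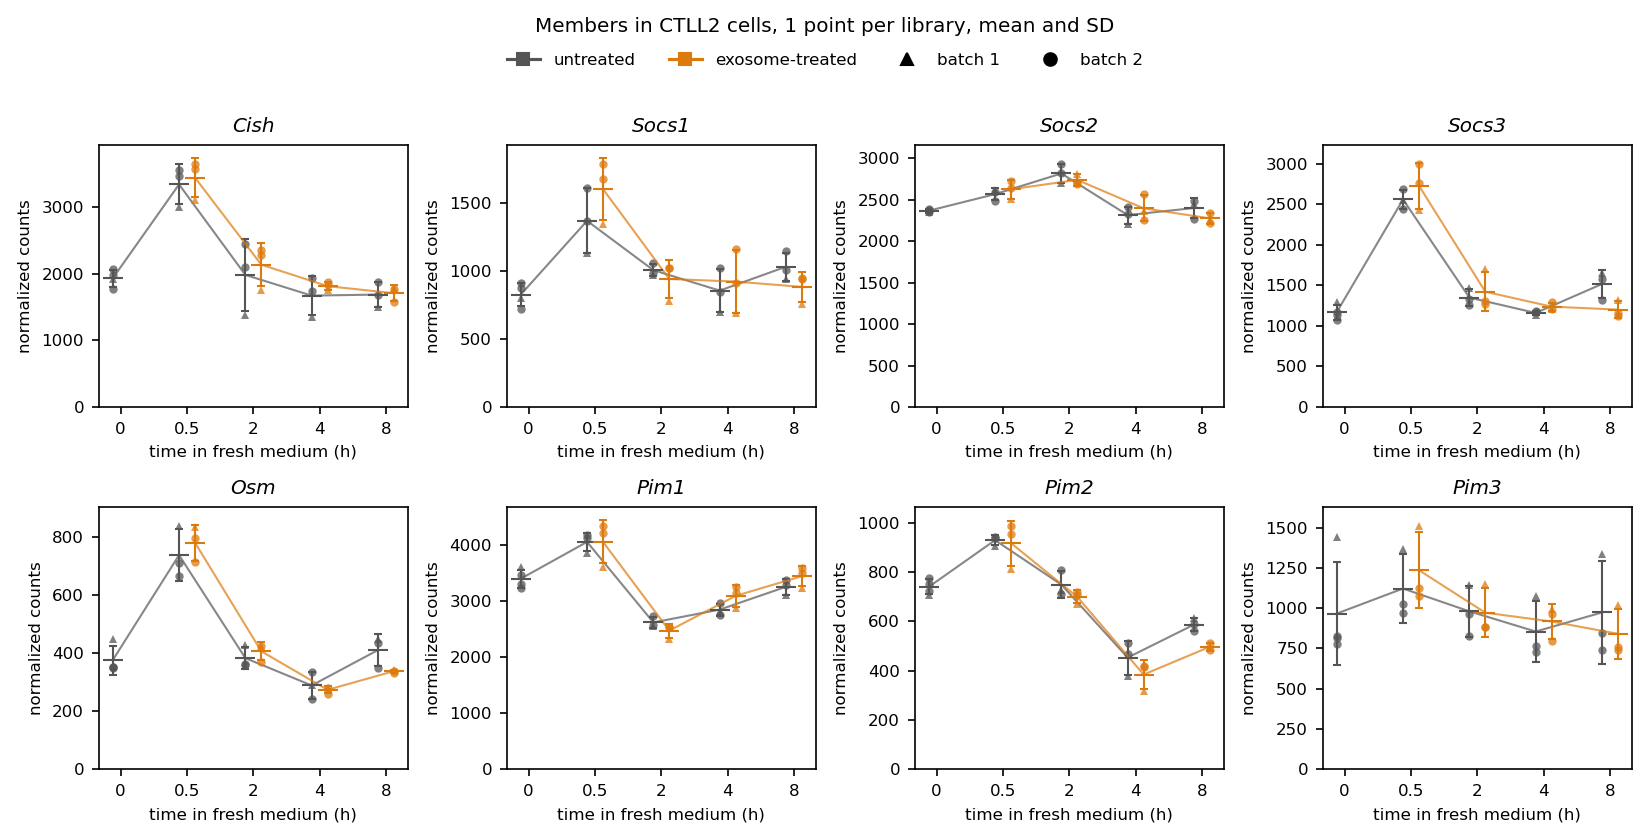
Normalized counts (y axis, from 0) of the 8 members against time in fresh medium in hours (x axis, times evenly spaced). Each point is 1 library (triangles batch 1, circles batch 2), horizontal ticks and bars are group means and SD (n = 4 at 0 h, n = 3 elsewhere), grey is untreated and orange exosome-treated. Every member but Pim3 stands above its 0 h libraries at 0.5 h in both treatments. The share of all genes whose 0.5 h libraries all lie above 0 h was not counted.

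Socs3 (ENSMUSG00000053113.3, chromosome 11 from 117966079 to 117970047 of GRCm38), whose product binds both JAKs and the shared receptor gp130, had the largest rise of the members. At 0 h its libraries held 1292, 1176, 1076 and 1135 normalized counts. At 0.5 h untreated libraries held 2551, 2688 and 2444, and treated libraries held 2429, 2996 and 2768. Every library at 0.5 h was above every library at 0 h. The untreated difference was 1.12 ± 0.09, or 2.18-fold (95% interval 1.92 to 2.48), with an adjusted p of 2.95e-08 in limma, the second smallest of 14828 genes. By 2 h Socs3 had come back down, to 1465, 1329 and 1257 in untreated and 1700.3, 1265 and 1302 in treated cells. Its step from 0.5 to 2 h was -0.92 ± 0.10 in untreated and -0.95 ± 0.10 in treated cells (limma adjusted p = 1.80e-06 and 1.21e-06). At 4 h untreated libraries were at 1130.4, 1169 and 1183 and treated ones at 1207, 1296 and 1212, close to the 0 h range.

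Osm (ENSMUSG00000058755.3, chromosome 11 from 4236420 to 4241026) had the next largest rise. Its 0 h values were 449.9, 354, 352 and 347, with the batch 1 library above the other 3. At 0.5 h it stood at 837, 709 and 667 in untreated and 835, 795 and 713 in treated cells, again with no overlap with 0 h. The untreated difference was 0.96 ± 0.10, 1.95-fold (95% interval 1.70 to 2.23), with a limma adjusted p of 9.02e-07. Levels fell back by 2 h to 427, 361 and 359.5 in untreated and 425, 370.2 and 423 in treated cells, and went on to their lowest values at 4 h, 289.6, 240.3 and 335 in untreated and 281, 279 and 259.8 in treated cells. At 4 h untreated Osm was below its 0 h level by -0.40 ± 0.10 (limma adjusted p = 0.0354). This call ended when any 1 of 6 of the 7 libraries compared was left out (adjusted p up to 0.261). Over all 7 such fits, including the 1 that kept the call, the differences were -0.55 to -0.30.

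Cish (ENSMUSG00000032578.7, chromosome 9 from 107296026 to 107302784), the gene of the STAT5 feedback inhibitor CIS, held 1914, 2063, 1974 and 1770.2 normalized counts at 0 h. Untreated cells at 0.5 h had 2999, 3466 and 3556, and treated cells had 3109, 3575 and 3643. The untreated rise of 0.81 ± 0.11 (95% interval 0.59 to 1.03) was 1.75-fold, with a limma adjusted p of 9.21e-05, and no 0.5 h library overlapped with 0 h. At 2 h the batches parted in untreated cells, where the values were 1388, 2452 and 2106, the first of them from batch 1 and below every 0 h library. The difference from 0 h was -0.46 in batch 1 and 0.23 in batch 2, and 0.02 ± 0.11 in the fit over both. At 4 h the values were 1346, 1735 and 1933 untreated and 1748, 1868 and 1823 treated. At 8 h they were 1504, 1874 and 1683 in untreated and 1780.2, 1574 and 1768 in treated cells, overlapping with 0 h. Gm17041 and Gm17040 lie on the opposite strand across parts of the Cish exons, and since the strand setting of the counting is not given in the sources used here, reads from them cannot be told apart from Cish reads. The pseudogene Gm17040 was counted at up to 31.7 in any library.

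Socs1 (ENSMUSG00000038037.4, chromosome 16 from 10782240 to 10785536) encodes an inhibitor that blocks JAK catalytic activity. It held 800.4, 909.7, 878 and 720.2 at 0 h, 1130.1, 1371 and 1609.9 in untreated cells at 0.5 h and 1345, 1681 and 1787 in treated cells at 0.5 h. The lowest 0.5 h library was above the highest 0 h library. Its untreated rise was 0.74 ± 0.10, or 1.67-fold (95% interval 1.45 to 1.94), with a limma adjusted p of 0.000187. Without the batch term the same rise had an adjusted p of 0.187. At 2 h the values were 974, 1059 and 988 untreated and 779.8, 1023 and 1025 treated, and at 4 h 701, 849 and 1021 in untreated and 694, 1162 and 913 in treated cells, with batch 1 the lowest library in both groups at 4 h.

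Socs2 (ENSMUSG00000020027.18, chromosome 10 from 95385362 to 95417180), a STAT5 target best known for restraining growth hormone signalling, had its highest mean at 2 h and not at 0.5 h. Its highest group mean was 1.24 times its lowest, the narrowest range of the members, and that of Osm, the widest, was 2.86 times. It started from 2349, 2389.8, 2379 and 2346, the tightest 0 h group of the 8 members, with an SD of 21.8. At 0.5 h it held 2622, 2487 and 2589 untreated and 2506, 2727 and 2642 treated, a difference of 0.12 ± 0.05 in untreated cells that was not called (limma adjusted p = 1.00). Its highest untreated mean came at 2 h, from 2700.0, 2927 and 2819, against 2815, 2715 and 2684 in treated cells. That was 1.19-fold (95% interval 1.10 to 1.29) its 0 h level, a difference of 0.25 ± 0.05 with a limma adjusted p of 0.0125 that became 0.0794 without untreated 2 h replicate 2. By 4 h it was at 2206, 2411 and 2323 in untreated and 2363, 2564 and 2259.6 in treated cells, and the untreated step down from 2 h was called (-0.28 ± 0.06, limma adjusted p = 0.0170).

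Pim1 (ENSMUSG00000024014.7, chromosome 17 from 29490753 to 29496112), the most abundant member per length, was lowest at 2 h and recovered afterwards. Libraries at 0 h held 3595, 3453, 3307 and 3221 normalized counts. At 0.5 h untreated libraries held 3860.4, 4114 and 4177 and treated libraries 3612, 4216 and 4329, and the untreated difference of 0.26 ± 0.06 was not called (limma adjusted p = 0.0608), although the untreated libraries did not overlap with 0 h. DESeq2 on the recovered reads called it (adjusted p = 0.000612), as did limma without untreated 0 h replicate 1 (difference 0.32, adjusted p = 0.00374). At 2 h Pim1 was at its lowest, with 2545, 2733 and 2566 in untreated and 2324, 2540.4 and 2542 in treated cells, all below every 0 h library. The untreated fall from 0 h was -0.37 ± 0.06, 0.775-fold (95% interval 0.713 to 0.841) the 0 h level, with a limma adjusted p of 0.000590. Pim1 was the only member below its 0 h level by the test at 2 h, and Socs2 the only one above it, against 1.00% of all genes called lower and 0.830% called higher. At 4 h untreated libraries held 2811, 2964 and 2755 and treated ones 2879.9, 3252 and 3133. At 8 h, with 3100.1, 3369 and 3279.9 in untreated and 3235, 3592 and 3494 in treated cells, both groups overlapped with 0 h. An antisense gene, Gm26885, overlaps Pim1 exons and was counted at 0 to 8.65.

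Pim2 (ENSMUSG00000031155.14, chromosome X from 7878262 to 7883432), which supports survival partly in parallel with the mTOR pathway, had its low point later. Its 0 h values were 709.5, 724, 778 and 751 and its 0.5 h values 908, 940.4 and 944 untreated and 815, 954 and 987 treated. The untreated difference at 0.5 h, 0.34 ± 0.08, was not called by limma (adjusted p = 0.127) and was called by DESeq2 (adjusted p = 0.0117). At 2 h it was near its start, at 728, 811 and 711 in untreated and 671, 722 and 707 in treated cells. At 4 h it held 378, 468 and 514 in untreated and 318, 419 and 416 in treated cells, below every earlier library. The untreated fall from 0 h was -0.71 ± 0.08, 0.613-fold (95% interval 0.546 to 0.688) the starting level, with a limma adjusted p of 1.08e-05. It was -0.91 in batch 1 and -0.61 in batch 2. Together with Osm and Pim1 it made 3 of 8 members called lower at 4 h, with 0 higher, against 0.971% lower and 0.223% higher among all genes. The Pim1 difference then was -0.25 ± 0.06 (limma adjusted p = 0.0291), a call lost without any 1 of 4 libraries, with adjusted p up to 0.296.

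Pim3 (ENSMUSG00000035828.10, chromosome 15 from 88862186 to 88865726) encodes another kinase of the family, and its batch 1 library was the highest in each of the 9 groups. At 0 h the values were 1445, 829.6, 814 and 779. At 0.5 h it held 1368, 972 and 1028 untreated and 1509.6, 1077 and 1124 treated, and at 2 h 1147, 966 and 831 in untreated and 1150.0, 882 and 885 in treated cells. At 4 h the values were 1074, 727 and 766 in untreated and 996, 962 and 795 in treated cells, and at 8 h 1338, 845 and 739 in untreated and 1019, 761 and 743 in treated cells. No difference from 0 h was called in untreated cells, and the 0.5 h difference, 0.21 ± 0.10 in the fit with a batch term (limma adjusted p = 1.00), was -0.08 in batch 1 and 0.31 in batch 2.

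At 8 h Socs3 and Socs1 were called higher than at 0 h in untreated cells, and Pim2 lower. Socs3 libraries held 1659, 1575 and 1318 in untreated cells, 0.36 ± 0.09 above 0 h (limma adjusted p = 0.00548). Socs1 libraries held 944, 1147 and 1007, 0.35 ± 0.10 above 0 h (limma adjusted p = 0.0147), a call lost without untreated 0 h replicate 4, untreated 8 h replicate 1 or untreated 8 h replicate 2 (adjusted p up to 0.0759) and without the batch term (0.181). Pim2 libraries held 614, 588 and 560.2, a difference of -0.32 ± 0.08 (limma adjusted p = 0.00576). Osm was at 449.9, 434 and 348 and Socs2 at 2444, 2488 and 2264, both overlapping with 0 h. So 2 of 8 members were called higher and 1 lower at 8 h, while 15.9% of all genes were called higher and 15.8% lower, which puts the members' shares near the background. Of the 3 untreated libraries at 8 h, replicates 1 and 2 held Acta1 at 202 and 206 normalized counts and replicate 3 at 3.57. Of the macrophage markers Cd14 was higher at 8 h (0.41 ± 0.14, limma adjusted p = 0.0337) and Cd68 was not called (-0.22 ± 0.12), and their part in the result was not tested. Without all libraries that held Acta1, the 8 h differences were 0.20 for Socs3 (adjusted p = 0.251) and 0.23 for Socs1 (adjusted p = 0.390), with replicate 3 as the lone untreated 8 h library, assumed to vary like the other groups, and the part of that RNA in the result was not tested.

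**Figure D2:**
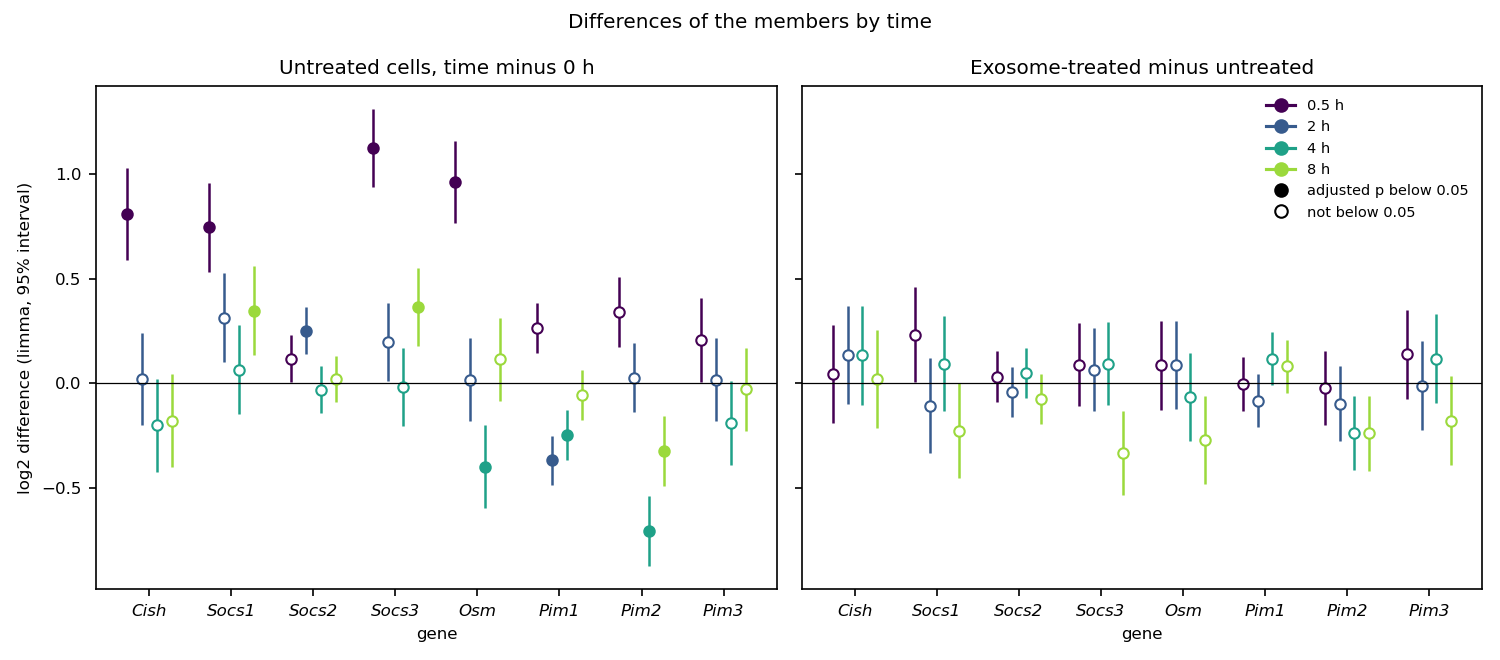
Log2 differences (y axis) of each member (x axis) with 95% intervals from limma, for untreated cells at each time minus 0 h (left) and exosome-treated minus untreated cells at the same time (right). Filled points passed an adjusted p of 0.05. The filled points are 12 untreated differences, from 1.12 for Socs3 at 0.5 h to -0.71 for Pim2 at 4 h, and none of the 32 exosome differences.

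Read as whole courses, 7 of the 8 members changed over the 5 untreated times by limma's moderated F test, all but Pim3 (adjusted p = 0.0633), where 21.6% of all genes did. Over the 4 treated times all 8 changed, against 4.94% of all genes. Between 0.5 and 2 h, 5 members fell in untreated cells (Cish, Socs1, Socs3, Osm and Pim1) and 6 in treated cells (also Pim2), against 1.46% and 1.27% of all genes called lower in those steps. The Socs1 step in untreated cells (-0.43 ± 0.11, limma adjusted p = 0.0394) was not called when any 1 of 5 of its 6 libraries was left out, and the treated Pim2 step (-0.39 ± 0.09, adjusted p = 0.0157) likewise. From 2 to 4 h, Pim2 and Socs2 fell in untreated cells (0.364% of all genes called lower). The Socs2 step was lost without any 1 of 4 of its 6 libraries, with adjusted p up to 0.187. In treated cells over the same interval Pim2 (-0.87 ± 0.09) and Osm (-0.57 ± 0.10) fell and Pim1 rose (0.32 ± 0.06, limma adjusted p = 0.00743), against 0.715% lower and 0.472% higher among all genes. From 4 to 8 h, 3 members rose in untreated cells, namely Osm (0.51 ± 0.10), Pim2 (0.38 ± 0.09) and Socs3 (0.38 ± 0.10), against 2.85% of all genes, and leaving out single libraries gave adjusted p up to 0.117, 0.164 and 0.183 for them. In treated cells 0 of 8 members were called over that last step, where 0.0337% of all genes were, and Pim2 came nearest (0.38 ± 0.09, limma adjusted p = 0.0769). Without the 8 libraries with Acta1, these 3 untreated steps were not called (0.35, 0.28 and 0.22 for Osm, Pim2 and Socs3, adjusted p = 0.360, 0.301 and 0.360). That leaves 1 library at 8 h in untreated cells and 1 each at 0.5 and 4 h in treated cells, assumed to vary like the other groups. Of the 9 treated steps 4 were then called. The other 5 kept about their size, at -0.62 for Cish, -0.71 for Socs1 and -0.42 for Pim2 from 0.5 to 2 h and at -0.60 for Osm and 0.30 for Pim1 from 2 to 4 h, with adjusted p from 0.0570 to 0.261 and fewer libraries.

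No member differed between exosome-treated and untreated cells by the test at any time. At 0.5, 2, 4 and 8 h 0 of 8 were called in limma, while 0.243%, 0.189%, 0.155% and 0.452% of all genes were. In the mean over the 4 times it was again 0 of 8, against 0.459%. Of the 32 differences at single times, 5 had an unadjusted p under 0.05, namely 1, 0, 1 and 3 of 8 members at the 4 times, beside 4.31%, 1.65%, 4.35% and 26.8% of all genes. On the recovered reads edgeR called 0 and DESeq2 called 1, at 8 h. A moderated F test for unequal exosome effects at the 4 times called 0 of 8 members and 0% of all genes in limma, with 2 members and 1873 of all genes at an unadjusted p under 0.05, and edgeR and DESeq2 called 0 of 8. Socs3 (unadjusted p = 0.0103, adjusted p = 0.366) and Socs1 (unadjusted p = 0.0325, adjusted p = 0.377) had the smallest p of the members there. Without untreated 8 h replicate 3, 1 member was called. That fit also called 26.3% of all genes for the exosome difference at 8 h, and its share for the F test is not given here. At the early peak, treated over untreated levels were 1.03-fold (95% interval 0.876 to 1.21) for Cish, 1.06-fold (95% interval 0.926 to 1.22) for Socs3, 1.06-fold (95% interval 0.917 to 1.23) for Osm and 1.17-fold (95% interval 1.00 to 1.37) for Socs1. The first 3 intervals include 1. That of Socs1 lies just above 1 (difference 0.23 ± 0.11, unadjusted p = 0.0459, adjusted p = 1.00), and the treated and untreated Socs1 libraries overlap. For the other members at 0.5 h the intervals were 0.941 to 1.11 for Socs2, 0.914 to 1.09 for Pim1, 0.870 to 1.11 for Pim2 and 0.950 to 1.28 for Pim3. Treated and untreated libraries did not overlap for Pim1 at 2 h, where treated cells were lower (-0.08 ± 0.06, limma adjusted p = 1.00), as in 1.62% of all genes, and for Socs3 at 4 h, where they were higher (0.09 ± 0.10, adjusted p = 0.925), as in 3.11%.

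The exosome differences with the smallest adjusted p were at 8 h, a time when many genes differed between these libraries at an unadjusted p under 0.05 (26.8% of all genes tested). Socs3 stood at 1659, 1575 and 1318 in untreated and 1318, 1122 and 1164 in treated cells, so that the lowest untreated library and the highest treated one were within 1 normalized count. Osm stood at 449.9, 434 and 348 in untreated and 342, 333 and 338 in treated cells, and Pim2 at 614, 588 and 560.2 in untreated and 494, 514 and 483 in treated cells. In these 3 of the 8 members every treated library was below every untreated one, as in 7.79% of all genes (5.37% had every treated library above), and the differences were -0.33 ± 0.10 for Socs3, -0.27 ± 0.10 for Osm and -0.24 ± 0.09 for Pim2, with limma adjusted p of 0.0772, 0.103 and 0.0967. Groups that do not overlap must give the same sign in each batch, so the sign adds nothing here. In size, the Socs3 difference was -0.33 in batch 1 and -0.33 in batch 2. That of Osm was -0.40 in batch 1 and -0.21 in batch 2, and that of Pim2 -0.31 in batch 1 and -0.20 in batch 2. Leaving out untreated 8 h replicate 3, the untreated library at that time without Acta1, brought all 3 past the threshold (differences -0.42, -0.36 and -0.30, adjusted p = 0.00565, 0.0177 and 0.0234). The same fit called 3903 of all genes, or 26.3%, so that 3 of 8 is near its background. DESeq2 on the recovered reads called Socs3 (adjusted p = 0.0352), 1 of 8 members, beside 6.02% of all genes. Over all single libraries left out, the adjusted p in limma reached 0.415 for Socs3, 0.436 for Osm and 0.486 for Pim2. Without all libraries that held Acta1 the Socs3, Osm and Pim2 differences were -0.17, -0.11 and -0.14, with an adjusted p of 0.997 for each. Skeletal muscle markers, 8 in the list, summed to 772 to 2052 in untreated and 728 to 782 in treated libraries at 8 h, with Acta1 at 1.79 to 2.09 in the treated ones, and the part of that RNA in these differences was not tested.

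Pim2 had the smallest p of the members for the exosome effect averaged over times, with a lower treated mean at each of the 4 times. At 0.5 h the batches differed in sign, with -0.16 in batch 1 and 0.04 in batch 2 for Pim2. At 4 h the Pim2 difference was -0.24 ± 0.09 (unadjusted p = 0.0110, limma adjusted p = 0.920), -0.25 in batch 1 and -0.23 in batch 2, although treated and untreated libraries overlapped. Averaged over the 4 times, treated Pim2 was 0.902-fold (95% interval 0.848 to 0.959) its untreated level (difference -0.15 ± 0.04, unadjusted p = 0.00198), which did not pass over all genes (adjusted p = 0.300). The other 7 members had mean effects between -0.04 and 0.08, with intervals of the fold of 0.904 to 1.05 for Osm and 0.977 to 1.15 for Cish, the farthest from 0 on each side.

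**Figure D3:**
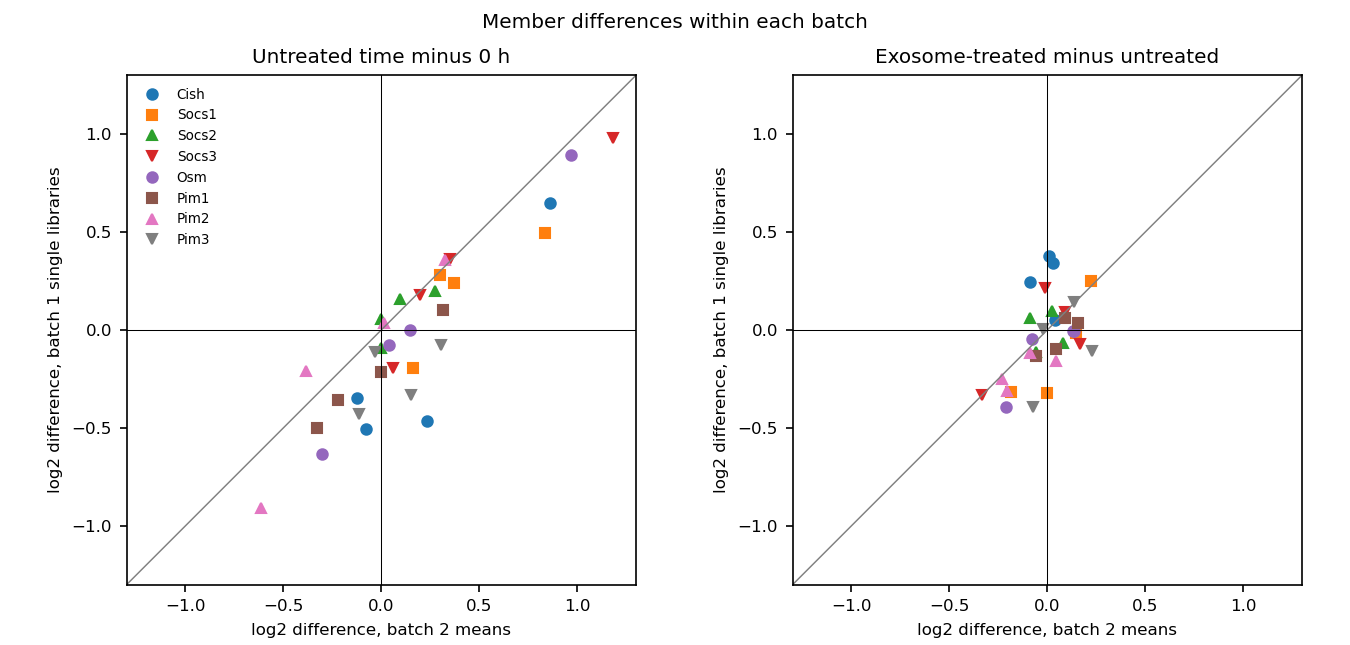
Log2 difference of each member in batch 1 (y axis, 1 library against 1) against the same difference between batch 2 means (x axis), for the 4 untreated times minus 0 h (left) and exosome-treated minus untreated at the 4 times (right). The grey line marks equal values. Of all 32 differences from 0 h, 26 have the same sign in both batches, and of the 32 exosome differences 19 do.

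The members differed in how closely they followed one another. Over the 28 libraries, with the batch difference removed, Socs3 and Osm had a Pearson r of 0.928 and Socs1 and Socs3 0.920, while Socs2 and Pim1 had -0.237, and the median over the 28 pairs was 0.672. These correlations are descriptions of points that share groups and libraries. Much of them rested on the early peak. Over the 22 libraries without the 6 at 0.5 h, a choice made after seeing the data, Cish and Socs3 had 0.168 in place of 0.880, Socs1 and Cish 0.103 in place of 0.815, and the median was 0.434. Osm and Pim2, which both reached their low at 4 h, kept 0.806, and Socs2 and Pim1, one at its highest and the other at its lowest at 2 h, had -0.726.

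**Figure D4:**
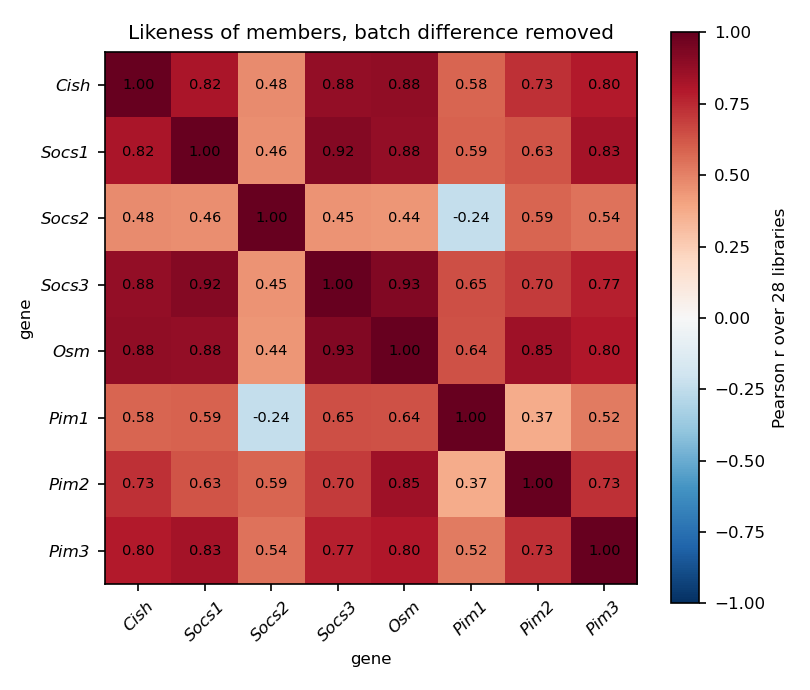
Pearson r (colour and printed value) between members over 28 libraries of log2(normalized count + 1) with the batch difference removed. Cish, Socs1, Socs3 and Osm have values between 0.82 and 0.93 with one another. Osm with Pim2 (0.85) and Socs1 with Pim3 (0.83) lie in the same range. Socs2 and Pim1 have the only negative value, -0.24.

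Among 9730 other genes with a mean of at least 50 normalized counts, Mycn, which encodes the transcription factor N-Myc, was most like Cish (r = 0.946), Socs1 (0.896), Osm (0.952) and Pim3 (0.875), while Csrnp1, next for Socs1 (0.895), was most like Socs3 (0.970), followed by Tnf (0.950), the gene of tumour necrosis factor, and Mycn (0.934). Dusp4 (with Cish, 0.897) and Dusp6 (with Socs1, 0.889, and Osm, 0.927), which encode phosphatases that inactivate MAP kinases, Etv3 with Cish (0.915) and Rhob with Osm (0.942) were the others for these genes. Without the 0.5 h libraries the r with Mycn was 0.673 for Cish, 0.479 for Socs1, 0.456 for Socs3, 0.735 for Osm and 0.795 for Pim3. Of the 25 genes called higher at 0.5 h in untreated cells, 4 are members and 21 are others, among them Mycn, Csrnp1, Tnf, Dusp4, Dusp6 and Rhob. In that comparison Dusp6 rose by 1.49 and Mycn by 0.93, beside 1.12 for Socs3. The 2 largest rises in it, named after their values were seen, were those of the immediate-early genes Fos (3.10) and Egr1 (2.20). Pim1 was most like Klf6 (0.880), Rnf19a (0.878) and Slc2a1 (0.867), the gene of a glucose transporter, and Pim2 was most like Pdk1 (0.914), a kinase gene that restrains pyruvate oxidation, Cyp51 (0.913), a gene of sterol synthesis, and Snupn (0.905). Socs2 was most like Dmwd (0.868), Abcb9 (0.848) and Lta (0.848), and for Pim3 Lif (0.823) and Trib3 (0.807) came after Mycn. Without the 0.5 h libraries the r of Socs2 and Pim2 with their 3 genes each was 0.848 to 0.891.

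Levels of different genes can be set side by side only per length. Per kilobase of the longest coding transcript in GENCODE M21, the 0 h levels in normalized counts were 1258 ± 61.0 for Pim1 (SD, n = 4) and 1065 ± 9.80 for Socs2. Cish at 677 ± 43.2 and Pim2 at 665 ± 27.4 did not differ beyond their spread. Socs3 at 458 ± 35.7 and Pim3 at 398 ± 132 likewise lay within their spread of each other. Socs1 stood at 284 ± 29.2 and Osm was lowest at 165 ± 21.9. Per kilobase of all annotated exons the order of the middle members changed, with Socs2 at 248 and Cish at 301, while Pim1 was again highest (1010 ± 49.0) and Osm lowest.

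None of the tested genes of the receptor and its signal chain passed the test during the early peak. Of 14 genes of the IL-2 receptor, the JAKs and the STATs, 13 were tested (Stat4 reached at most 4.89), and 0 were called at 0.5, 2 or 4 h in untreated cells. Of all genes 0.189%, 1.83% and 1.19% were called at these times, so that 0 of 13 is near the background. At 8 h, when 15.8% of all genes were called lower and 15.9% higher, 5 of 13 were lower and 0 higher, among them Jak3 (-0.75 ± 0.12, limma adjusted p = 0.000501), the kinase bound to the common gamma chain, Stat2 (-0.27 ± 0.08) and Il2rb (-0.18 ± 0.06), the IL-2 receptor beta chain. The list's median difference at 8 h was -0.10, beside -0.01 over all genes. Without the Acta1 libraries, which leaves 1 untreated library at 8 h, 1 of the 13 was lower at 8 h, Jak3 (-0.76, adjusted p = 0.0315), beside 2.55% of all genes called in either direction. Stat5a ran from 4227 to 6421 and Stat5b from 6349 to 7926 over the 28 libraries. Exosome differences were called for 0 of the 13 at each time, beside 0.243%, 0.189%, 0.155% and 0.452% of all genes at 0.5, 2, 4 and 8 h.

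Among 15 other inhibitors of the pathway, all tested and including Socs4 to Socs7, 0 were called at 0.5 h, beside 0.189% of all genes. At that time 3 of the 4 SOCS-type members were called higher. Ptpn1, a phosphatase that acts on JAKs, was the 1 gene higher at 2 h (0.32 ± 0.06, limma adjusted p = 0.00293), beside 0.830% of all genes. At 8 h 1 of 15 was higher and 2 were lower, beside 15.9% and 15.8% of all genes, and 0 were called without the Acta1 libraries. Among the lower genes was Socs4 at -0.29 ± 0.08 (adjusted p = 0.00663), and Ptpn6, the gene of SHP-1, was at 0.22 ± 0.09 (adjusted p = 0.0693). The median differences of this list were 0.00 at 0.5 h and -0.04 at 8 h, beside 0.00 and -0.01 over all genes.

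Of 17 other genes known to respond to IL-2 or STAT5, 16 were tested (Il7r reached at most 0.946). At 0.5 h 2 were called higher, Ifng and Myc, beside 0.169% of all genes. Ifng, the interferon gamma gene, was 1.07 ± 0.19 above 0 h (limma adjusted p = 0.00452), and Myc 0.37 ± 0.06 (adjusted p = 0.00504). At 2 h 3 were higher, Lta (1.32 ± 0.20), Ifng (0.99 ± 0.19) and Bcl2l1 (0.54 ± 0.09), the gene of the survival protein Bcl-xL, at the time of the highest Socs2 mean. Of all genes 0.830% were called higher then. At 4 h 1 was lower, the survival gene Bcl2 (-0.82 ± 0.11, adjusted p = 6.54e-05), at the time of the Pim2 low. Of all genes 0.971% were called lower then. At 8 h 1 of 16 was higher and 4 lower, beside 15.9% and 15.8% of all genes, and 0 were called without the Acta1 libraries. Over the untreated course 8 of 16 changed, beside 21.6% of all genes. The list's medians were 0.13 at 0.5 h and 0.13 at 2 h, beside 0.00 at both times over all genes. Exosome differences were called for 0 of the 16 at each time, beside 0.243%, 0.189%, 0.155% and 0.452% of all genes at 0.5, 2, 4 and 8 h.

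For oncostatin M, the receptor side was nearly absent. Osmr was at 0 in 20 of 28 libraries and at most 4.31, Lifr at 0 in 18 and at most 6.27, and Il6ra at 0 in 21 and at most 3.14, while the shared signal chain Il6st was at 93.6 to 207. A value of 0 allows up to 3 reads, or 1.88 to 7.47 normalized counts depending on the library, for counting error only. Of the related ligands, Il11 reached at most 5.52 and Il6 was not analysed here. Lif, the closest relative that was tested, was 0.61 ± 0.16 above 0 h at 0.5 h without passing the test (limma adjusted p = 0.278) and then fell below 0 h, by -0.68 ± 0.16 at 4 h (adjusted p = 0.0337) and -0.55 ± 0.16 at 8 h (adjusted p = 0.0129, and 0.244 without the Acta1 libraries).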

How the data were processed

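RNA of CTLL2 cells was sequenced as paired-end reads in 28 libraries. The build GRCm38.p2 and the tools STAR 2.4.2, CASAVA 1.8.4, R 3.3.2, featureCounts 1.5.0 and DESeq2 appear in the submitters' processing notes, with no role or order. Strand setting and annotation release were not given in these sources. The authors deposited normalized counts, a signal that is the read count divided by 1 size factor per library: every value in every library came out as a whole number of reads within 0.01 read (100.0% of values). Of 30608 identifiers 30403 were found in GENCODE M21.

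Genes with at least 10 normalized counts in at least 3 libraries (14828) were tested in R 4.3.3 by limma 3.58.1, on the scale log2(normalized count + 1) and with its variance prior following a trend in the mean. The model had 9 group means, a batch term and 18 residual degrees of freedom, with Benjamini-Hochberg adjustment over all of them at 0.05. The intervals are at 95%. edgeR 4.0.16 and DESeq2 1.42.0 on the recovered reads, other pseudocounts, filters and scalings, a replicate block and left-out libraries were alternatives. The counts of the pathway lists without the Acta1 libraries were added after seeing the data. The labels call the replicates biological but do not name separate cultures or days for them, so p-values measure the spread between these libraries. A value of 0 allows up to 3 reads, which covers counting error only. Named genes are all members, up to 4 genes of each list called in the untreated course (or the 2 with the smallest p), and the 3 genes most correlated with each member among those with a mean of at least 50. Members and lists were chosen with earlier results of these data known. Il6 was not analysed here. Motifs were searched in 32851 RefSeq promoter windows. The fit was tested on simulated data.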

Additional observations from a re-analysis of the deposited data

Results flagged for a closer look

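With 4 libraries, the untreated 0 h group was searched for a library far from the others, in each of the 8 members. In 2 of the 8 the batch 1 library, replicate 1, stood apart on the high side. Osm was at 449.9 normalized counts there, against 346.8 to 353.5 in the 3 batch 2 libraries, a gap of 0.935 of the group's range past Dixon's 95% critical value for 4 samples. Pim3 was at 1445 normalized counts in the same library, against 779 to 829.6 in the others, a gap of 0.924 of the range. Chance gives such a gap in about 1 in 20 groups. For Pim3 the batch 1 library was the highest in all 9 groups.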

How the results depend on the processing

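The numbers of reads, 231 to 4701 per member and library, and 3 libraries per group limit what could be called. The Socs3 and Osm rises at 0.5 h were called under every alternative. The replicate numbers do not mark shared cultures in the labels, and same-numbered libraries of different groups did not all deviate together (median r 0.257 over 108 pairs, -0.648 to 0.727, beside 0.040 for other numbers and 0.350 within a batch), so the block was kept as an alternative. With a replicate block in place of the batch term, 2 members were called in untreated cells at 0.5 h (4 in the fit with batch; Cish had an adjusted p of 0.128 and Socs1 of 0.622), 0 at 2 h (2), 1 at 4 h (3) and 1 at 8 h (3), with 5 of the successive untreated steps (10) and 4 of the treated ones (9). With the replicate block and the batch term, 1 was called at 2 h. Without a batch term, 1 was called at 2 h and 1 at 4 h, with 5 untreated and 4 treated steps. At 4 h 1 member was also called with no filter on low values, and 1 without the 2 libraries with fewer genes at 0. Without the Acta1 libraries, 1 was called at 8 h and 4 treated steps. DESeq2 called 1 exosome difference at 8 h. Leaving out single libraries gave 4 to 5 members at 0.5 h, 1 to 2 at 2 h, 1 to 2 at 4 h, 2 to 3 at 8 h, 0 to 3 for exosomes at 8 h, 0 to 1 for the exosome effect by time, 7 to 8 for each course, 7 to 14 untreated and 8 to 9 treated steps. Both values above 0 for exosomes came without untreated 8 h replicate 3. The share of all genes called for the exosome difference at 8 h went from 0.452% to 26.3% without that library. The member counts in this section stand without the share of all genes called in the same fit. A changed count is therefore not a result about the members. Of the 1834 fits of 83 differences that were not called and had an unadjusted p of 0.05 or above, 95 had the opposite sign, 22 were called with the same sign and 0 with the opposite sign.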
